A study of Mus musculus with 8 samples.

Results

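The proteasome genes described here are the 48 genes, of 23997 in the deposited table, whose symbol is Psma, Psmb, Psmc, Psmd, Psme, Psmf or Psmg followed by a number. The rule for their choice uses the name and no measured value, and 46 of them reached 100 estimated fragments in the higher of the 2 measured columns. Marginal zone B cells (MZBs), which sit at the edge of splenic follicles and meet antigen carried by blood, were taken from C57BL/6 mice for RNA sequencing. There were 4 libraries labelled ACKR3+ and 4 labelled ACKR3- by genotype, with titles that give presence or absence of GFP. The sources used here state neither the allele that carries GFP nor the ages of the mice. ACKR3 is a scavenging receptor for the chemokine CXCL12. The table holds 1 pooled estimate per gene for each of 2 conditions, named q2 and q1, and no label ties either to ACKR3+ or ACKR3- cells. Values therefore stand under the names q2 and q1, and nothing is said of which is ACKR3+. Differences could not be checked against replicates, so there are no p-values.

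The 26S proteasome degrades ubiquitin-tagged proteins. Its 20S core is a barrel of outer alpha rings (Psma genes) and inner beta rings (Psmb genes), and its 19S cap recognises, unfolds and threads substrates through ATPases (Psmc genes) and non-ATPase subunits (Psmd genes). Lymphocytes and interferon-exposed cells also make the immunoproteasome, in which Psmb8, Psmb9 and Psmb10 take the places of the catalytic subunits Psmb5, Psmb6 and Psmb7, which alters the peptides cut for MHC class I. Psme1 and Psme2 encode PA28 alpha and beta, an interferon-inducible cap that opens the core without ATP. Not every member is a subunit in mature particles: Psmg1 to Psmg4 assist assembly of the 20S core, Psmd5, Psmd9 and Psmd10 assist assembly of the 19S base, and Psmf1 encodes the inhibitor PI31.

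Upstream sequences are shown for some members, described below, and Psme1, the member with the lowest ratio, is not among those shown. The sequences are the parts outside annotated exons of the 250 bases before the RefSeq start (GRCm38.p6), 5′ to 3′ on the gene's strand. Capitals mark matches to any of 4 motifs searched on both strands. These are the antioxidant response element (TGACNNNGC), bound by NRF1 and NRF2, the CCAAT box (CCAAT), the interferon-stimulated response element (GAAA, any 2 bases, then GAAA), and the gamma-activated site (TTCNNNGAA). No pair of matches overlapped in the stretches shown. Psma1, Psmc1 and Psmd12 had the highest ratio of q2 over q1 in their role groups and Psmb6 the next to highest, Psmb5 is the constitutive counterpart of Psmb8, and Psmb10 is an immunoproteasome subunit whose stretch held no match. None is shown for Psmb8 and Psmb9, whose windows lie wholly within annotated exons.
Psma1 (chr7:114276119-114276366, minus strand): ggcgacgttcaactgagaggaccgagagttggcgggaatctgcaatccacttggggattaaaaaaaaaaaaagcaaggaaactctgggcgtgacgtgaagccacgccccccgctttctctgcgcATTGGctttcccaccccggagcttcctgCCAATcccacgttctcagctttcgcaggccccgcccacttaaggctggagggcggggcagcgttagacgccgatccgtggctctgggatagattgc
Psmb6 (chr11:70525107-70525356, plus strand): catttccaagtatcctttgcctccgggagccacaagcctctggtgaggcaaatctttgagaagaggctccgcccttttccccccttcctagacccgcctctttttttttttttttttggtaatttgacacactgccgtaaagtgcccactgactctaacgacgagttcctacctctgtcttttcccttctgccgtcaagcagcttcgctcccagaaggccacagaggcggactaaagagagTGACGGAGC
Psmc1 (chr12:100109952-100110153, plus strand): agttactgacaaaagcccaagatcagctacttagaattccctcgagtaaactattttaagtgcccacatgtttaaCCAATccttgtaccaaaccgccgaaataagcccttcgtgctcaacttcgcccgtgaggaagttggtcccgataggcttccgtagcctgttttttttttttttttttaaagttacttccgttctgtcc
Psmd12 (chr11:107479278-107479483, plus strand): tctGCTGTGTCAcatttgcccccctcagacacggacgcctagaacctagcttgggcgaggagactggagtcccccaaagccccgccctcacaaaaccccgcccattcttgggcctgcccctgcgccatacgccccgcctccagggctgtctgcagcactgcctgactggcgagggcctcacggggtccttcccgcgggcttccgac
Psmb5 (chr14:54618023-54618245, minus strand): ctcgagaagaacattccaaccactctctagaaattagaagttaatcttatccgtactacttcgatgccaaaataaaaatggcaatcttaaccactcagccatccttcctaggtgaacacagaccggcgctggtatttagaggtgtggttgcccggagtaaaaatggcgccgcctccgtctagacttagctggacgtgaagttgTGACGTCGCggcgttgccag
Psmb10 (chr8:105938445-105938642, minus strand): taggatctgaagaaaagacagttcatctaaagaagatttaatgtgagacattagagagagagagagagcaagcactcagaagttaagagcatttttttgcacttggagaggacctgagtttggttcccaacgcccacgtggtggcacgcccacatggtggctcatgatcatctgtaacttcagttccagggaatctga

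Over the 300-base windows (250 bases before the start and 50 after) of the 40 members in the RefSeq table, motifs were matched as follows. The antioxidant response element was matched in 6 of 40 members (15%), against 12.4% of 32851 windows of all genes, and the members were Psmb5, Psmb6, Psmc6, Psmd9, Psmd12 and Psme4. The CCAAT box was matched in 14 of 40 (35%), against 37.4% of all windows. The interferon-stimulated response element was matched in 5 of 40 (12.5%), against 3.44% of all windows, in Psmb3, Psmd4, Psmd9, Psme1 and Psmg4. In Psme1 it lay at position 10 after the start. The gamma-activated site was matched in 3 of 40 (7.5%), against 8.30% of all windows, in Psmb8, at 97 bases before the start, Psmd2 and Psmg1. Distances are from the RefSeq start. The matched windows of Psme1, Psmb8, Psmd9 and Psmb11 begin inside the gene as GENCODE places it. They begin at 55578244, 34197945, 123227940 and 54625060, and the genes at 55578123, 34197721, 123169413 and 54621433. The window of Psmb9, on the minus strand, also lies inside its gene. It covers 300 bases from 34187281, and the gene ends at 34187764. Psmb9 and Psmb11 are among the CCAAT box matches. A match describes letters in the window and is not evidence of binding. The members without a window were Psma8, Psmb1, Psmb2, Psmb7, Psmc3, Psmd3, Psmd7 and Psmg2.

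Every constitutive subunit of the 20S core and the 19S particle that was compared was slightly higher in q2. Of these 31 genes, 31 had a log2 ratio of q2 over q1 above 0, where 50.2% of the 9582 genes compared did. Of the 46 members, 39 were higher in q2 and 7 were higher in q1, where 49.8% of all genes compared were higher in q1. The median log2 ratio of the 31 constitutive subunits was 0.12 and their range 0.01 to 0.26, and the median over all genes compared was 0.00. In contrast the 3 immunoproteasome subunits had a median of 0.00, and Psme1 and Psme2 were below 0. The differences were small. No member was at least 25% higher in either column, whereas 6.90% of all genes compared were at least 25% higher in q2 and 4.59% at least 25% higher in q1.

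Single genes did not exceed their error by much, and most not at all. The deposited variances gave SDs of the members' log2 ratios of 0.18 to 0.33, and 42 of 46 ratios lay within 1 SD of 0. The 4 beyond 1 SD were Psma1, Psma4, Psmb7 and Psmc1, all higher in q2, so that 8.70% of members were beyond 1 SD, against 19.5% of all genes compared. No member was beyond 2 SD, against 6.26% of all genes. The file does not say if that variance describes a single library or the mean of several. Counting error was smaller: the summed fragments of the constitutive genes had a log2 ratio of 0.12 with an exact (Clopper-Pearson) 95% interval of 0.10 to 0.14, treating estimated fragments as counts. All members come from the same 2 pooled estimates, so counts of genes do not stand for independent observations.

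**Figure D1:**
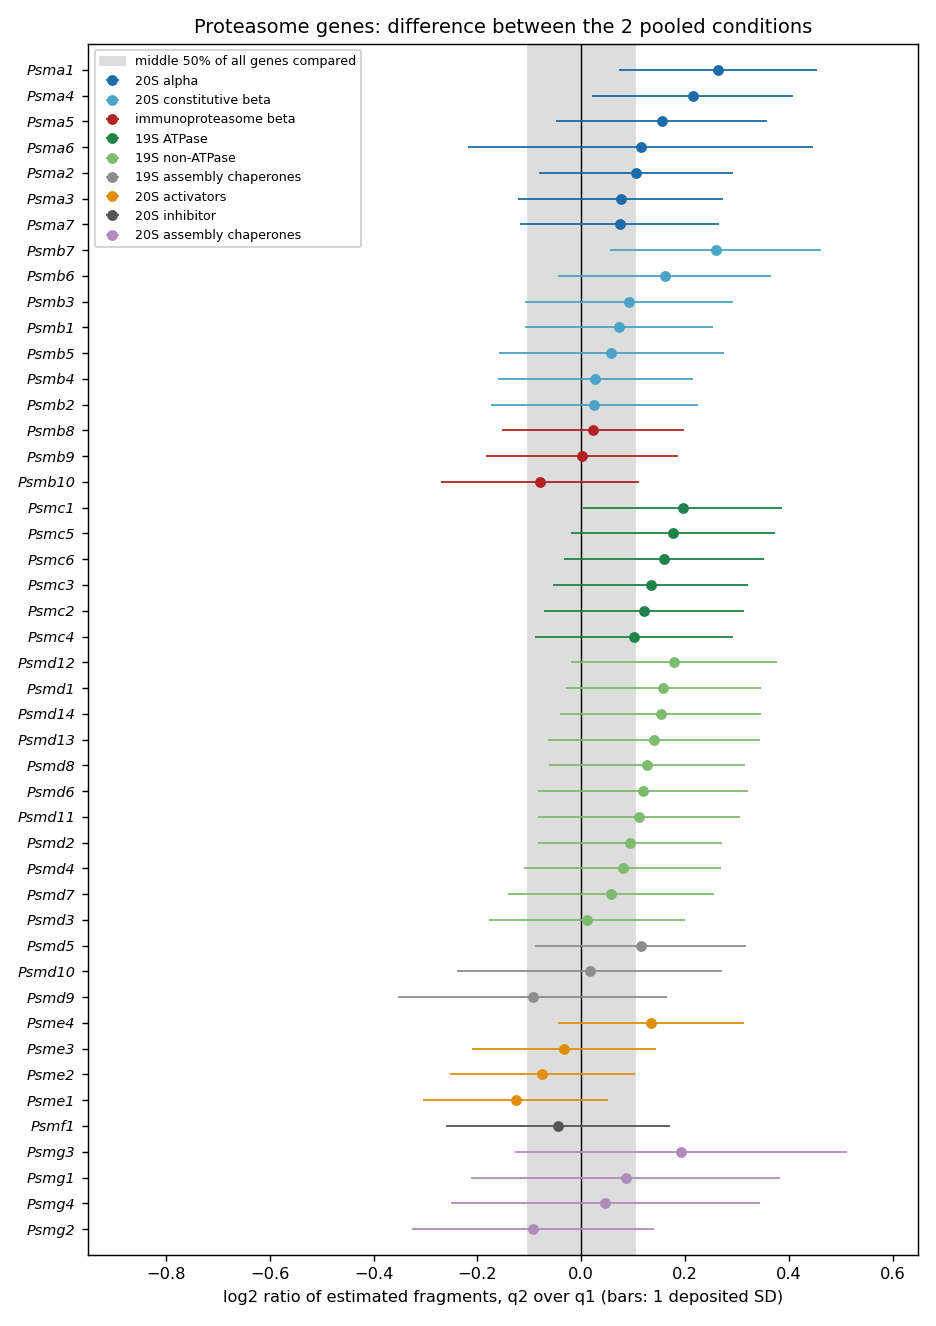
Log2 ratio of estimated fragments, q2 over q1, for the 46 members compared, grouped by role; points are the ratios, bars are 1 SD from the deposited variances, and the grey band holds the middle 50% of all 9582 genes compared. The 31 constitutive 20S and 19S subunits all sit right of 0, whereas Psmb10, Psme1, Psme2, Psme3, Psmd9, Psmf1 and Psmg2 sit left of it.

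The alpha subunits form the outer rings and the gate of the core. Psma1 had 1284 fragments in q2 and 1069 in q1, a log2 ratio of 0.26 ± 0.19 (deposited SD) and a ratio of 1.20, the highest of the 46 members. Psma4 had 1164 fragments in q2 and 1002 in q1, at 0.22 ± 0.19. Psma5 had 841 fragments in q2 and 755 in q1, at 0.16 ± 0.20. The other alpha genes were closer together in the 2 columns. Psma6 had 1220 and 1126 fragments in q2 and q1, at 0.12 ± 0.33, Psma2 had 1447 and 1345, at 0.10 ± 0.19, and Psma3 had 1617 and 1535, at 0.08 ± 0.20. Psma7 was the lowest of the group, with 1127 fragments in q2 and 1071 in q1, at 0.07 ± 0.19. All 7 were higher in q2, with a group median of 0.12. The wide error of Psma6 came from its deposited variance, whose coefficient of variation was 1.70 times in q2 and 1.78 times in q1 the running median of genes of similar count. Psma8, which encodes an alpha subunit of male germ cells, had 2.16 fragments in q2 and 1.12 in q1, both under a floor of 3 counts, and no ratio is given.

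Among the constitutive beta subunits the largest difference was that of Psmb7, which carries the trypsin-like activity. Psmb7 had 876 fragments in q2 and 732 in q1, at 0.26 ± 0.20 and a ratio of 1.20. Psmb6, the caspase-like subunit, had 803 fragments in q2 and 718 in q1, at 0.16 ± 0.20. Psmb5, the chymotrypsin-like subunit and the target of bortezomib, had 584 fragments in q2 and 561 in q1, at 0.06 ± 0.22. Psmb7 and Psmb6 had counting intervals above 0 and Psmb5 did not. The non-catalytic beta genes lay between 0.03 and 0.09. Psmb3 had 906 fragments in q2 and 849 in q1, at 0.09 ± 0.20, and Psmb1 had 2138 and 2032, at 0.07 ± 0.18. Psmb4 had 1358 fragments in q2 and 1332 in q1, at 0.03 ± 0.19, and Psmb2 had 907 and 891, at 0.03 ± 0.20. All 7 were higher in q2, with a median of 0.07. Psmb11, the thymoproteasome subunit of thymic cortical epithelium, had 2.93 fragments in q2 and 1.99 in q1, below the floor in both.

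The immunoproteasome subunits had log2 ratios near 0. Their median was 0.00 as deposited and 0.07 with a linear adjustment for GC content, length and expression level, which moved Psmb8 to 0.12, the median of the constitutive subunits. Psmb8 also lay above constitutive Psmd3 without it, and the difference between the groups was not tested. Psmb8 (LMP7; chromosome 17, 34197721 to 34201454, GRCm38) had 3744 fragments in q2 and 3686 in q1, a log2 ratio of 0.02 ± 0.18. Psmb9 (LMP2; chromosome 17, 34181987 to 34187764) had 1568 fragments in q2 and 1566 in q1, at 0.00 ± 0.18. Psmb10 (MECL-1; chromosome 8, 105935735 to 105938444) had 1134 fragments in q2 and 1198 in q1, at -0.08 ± 0.19. All 3 ratios lay between the quartiles of all genes' log2 ratios, at -0.10 and 0.10. Their fragments summed to 6446 in q2 and 6451 in q1, a log2 ratio of -0.001 with counting error from -0.05 to 0.05. The same sum over the 32 constitutive genes was 37322 in q2 and 34366 in q1. Psmb8 and Psmb9 lie in the MHC class II region beside the peptide transporter genes: Psmb9 and Tap1 are divergent and share 212 exon bases on opposite strands, and 495 bases separate Tap1 from Psmb8. Tap1, which moves proteasome products into the endoplasmic reticulum, had 5930 fragments in q2 and 6421 in q1, at -0.11 ± 0.18.

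Set against the subunit it replaces, each immunoproteasome gene had the lower q2 over q1 ratio. The difference of log2 ratios was -0.34 ± 0.28 (deposited SD) for Psmb10 minus Psmb7, with a 95% counting interval of -0.53 to -0.15. For Psmb9 minus Psmb6 it was -0.16 ± 0.28, with an interval of -0.34 to 0.02. For Psmb8 minus Psmb5 it was -0.04 ± 0.28, with an interval of -0.22 to 0.15. Thus 1 of 3 pairs differed beyond counting error, and also beyond 1 but not 2 deposited SD. The direction was shared by the 3 pairs, but that of Psmb8 minus Psmb5 became 0.02 with that adjustment, and Psmb10 minus Psmb7 then became -0.25. Psmb7 shares 405 exon bases with Nek6 on the opposite strand, Psmb8 shares 498 with an antisense transcript, and Psmb5 has a pseudogene copy of 98.9% identity. Because no source used here states that counting used strand, reads from these stretches cannot be told apart.

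In levels per kb of transcript the immunoproteasome gene exceeded its counterpart in both columns, by amounts that differed between pairs. Psmb8 stood at 2300 fragments per kb in q2 and 2264 in q1, and Psmb5 at 649 and 624, so the within-column ratio of Psmb8 over Psmb5 was 3.54 in q2 and 3.63 in q1. The ratio of Psmb9 over Psmb6 was 1.15 in q2 and 1.29 in q1, from 1160 over 1007 fragments per kb in q2 and 1159 over 900.3 in q1. The ratio of Psmb10 over Psmb7 was 1.15 in q2 and 1.45 in q1, from 865 over 755 fragments per kb in q2 and 914 over 631 in q1. As a share of the pair's summed fragments per kb, the immunoproteasome gene held 78.0% in q2 and 78.4% in q1 for Psmb8, 53.5% and 56.3% for Psmb9, and 53.4% and 59.2% for Psmb10. Lengths are those of the longest coding transcript, which for these genes is also the principal one in the annotation, and levels are of RNA and not of assembled particles.

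**Figure D2:**
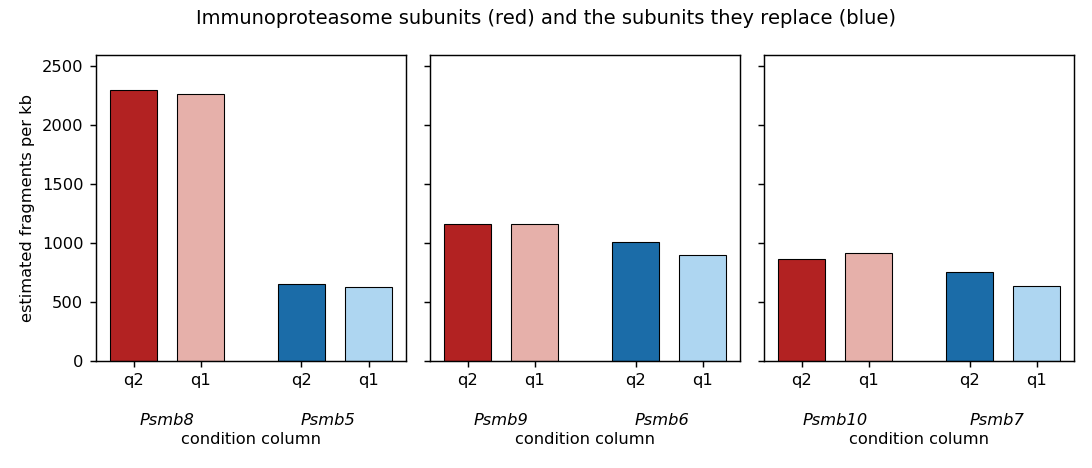
Estimated fragments per kb of transcript (linear axis from 0) in columns q2 and q1 for the 3 immunoproteasome genes, in red, and the constitutive catalytic genes they replace, in blue; each bar is 1 pooled value without replicate error. Psmb8 stands at 2300 and 2264 against 649 and 624 for Psmb5, while the bars of the other pairs are closer together.

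The 6 ATPases of the 19S base, which form the ring that unfolds substrates, spanned log2 ratios of 0.10 to 0.20. Psmc1 had 1251 fragments in q2 and 1092 in q1, at 0.20 ± 0.19, the highest of the group. Psmc5 had 1020 fragments in q2 and 902 in q1, at 0.18 ± 0.20, and Psmc6 had 1173 and 1050, at 0.16 ± 0.19. Psmc3 had 1397 fragments in q2 and 1273 in q1, at 0.13 ± 0.19, and Psmc2 had 1151 and 1059, at 0.12 ± 0.19. Psmc4 was the lowest, with 1215 fragments in q2 and 1132 in q1, at 0.10 ± 0.19. All 6 were higher in q2, with a median of 0.15, the highest of the role groups. Psmc1 has a pseudogene copy of 95.6% identity and Psmc3 shares 215 exon bases with Slc39a13.

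The 11 non-ATPase subunits were all higher in q2 as well, with a median of 0.12. Psmd12, a subunit of the lid, had 976 fragments in q2 and 863 in q1, at 0.18 ± 0.20. Psmd1, a large scaffold of the base, had 1466 fragments in q2 and 1314 in q1, at 0.16 ± 0.19. Psmd14, the deubiquitinase that removes ubiquitin chains as substrates enter, had 1126 fragments in q2 and 1013 in q1, at 0.15 ± 0.19. These 3 led the group. Psmd2, the other scaffold of the base, was the most abundant Psmd gene per kb, with 2720 fragments in q2 and 2547 in q1, at 0.09 ± 0.18. Psmd4, a ubiquitin receptor, had 1262 fragments in q2 and 1194 in q1, at 0.08 ± 0.19. Psmd3, a lid subunit, was nearly equal with 1287 and 1276 fragments in q2 and q1, at 0.01 ± 0.19. The remaining Psmd6, Psmd7, Psmd8, Psmd11 and Psmd13 lay between 0.06 and 0.14. The 24 regulatory genes (Psmc, Psmd and Psme) had 20 members higher in q2 and 4 higher in q1, with a median of 0.12; the 4 were Psmd9, Psme1, Psme2 and Psme3.

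The activators that bind the ends of the core did not differ in 1 direction. Psme1 (PA28 alpha; chromosome 14, 55578123 to 55581529) had 2719 fragments in q2 and 2968 in q1, at -0.13 ± 0.18, the lowest ratio of the 46 members, with a counting interval of -0.20 to -0.05. Psme2 (PA28 beta) lies 5911 bases from Psme1 on the opposite strand and had 2334 fragments in q2 and 2458 in q1, at -0.07 ± 0.18. Psme2 has a near-identical annotated copy, Psme2b, with 99.4% identity over 82.5% of the transcript, so its reads could be split between them; Psme2b had 1231 fragments in q2 and 1293 in q1, at -0.07 ± 0.46. Psme3, PA28 gamma of the nucleus, which is not a partner of the interferon-inducible pair, had 2803 fragments in q2 and 2868 in q1, at -0.03 ± 0.18. Psme4, the large activator PA200, had 2334 fragments in q2 and 2126 in q1, at 0.13 ± 0.18. With the same linear adjustment Psme1 stood at -0.05, Psme2 at -0.02, Psme3 at 0.00 and Psme4 at 0.11.

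Assembly factors and the inhibitor gave no common direction, with 5 of 8 higher in q2. For the 20S chaperones, Psmg3 had 163 fragments in q2 and 143 in q1, at 0.19 ± 0.32, Psmg1 had 194 and 182, at 0.09 ± 0.30, Psmg4 had 194 and 188, at 0.05 ± 0.30, and Psmg2 had 413 and 441, at -0.09 ± 0.23. For the 19S chaperones, Psmd5 had 831 fragments in q2 and 767 in q1, at 0.11 ± 0.20, Psmd10 (gankyrin) had 312 and 308, at 0.02 ± 0.26, and Psmd9 had 284 and 303, at -0.09 ± 0.26. Psmf1 had 575 fragments in q2 and 592 in q1, at -0.04 ± 0.22. The counting interval of each of these 8 genes included 0. Psmd9 shares 1849 exon bases with a lincRNA on the opposite strand.

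**Figure D3:**
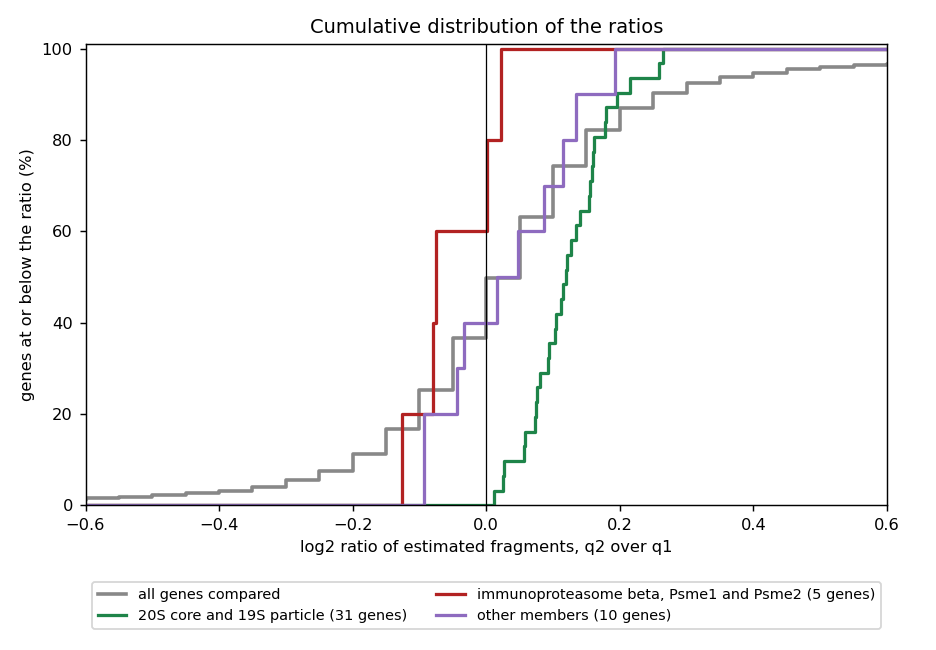
Cumulative percentage of genes at or below each log2 ratio (q2 over q1) for all 9582 genes compared, the 31 constitutive 20S and 19S subunits, the 5 genes Psmb8, Psmb9, Psmb10, Psme1 and Psme2, and the 10 other members. The curve of the constitutive subunits starts right of 0 and ends at 0.26, inside the range of all genes, and the curve of the 5 genes ends at 0.02.

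The 5 genes of the immunoproteasome and PA28 alpha and beta, a grouping from known biology made with their values in view, had a median log2 ratio of -0.07, with 2 higher in q2 and 3 higher in q1. Their transcripts were richer in GC, with a median of 55.3% GC against 49.5% for the 31 constitutive subunits and 49.7% for all genes compared. Members of both sets had short transcripts, with median lengths of 1311 bases for the 5 genes and 1581 bases for the constitutive subunits, against 3169 bases for all genes compared. After the linear adjustment the median of the 5 genes was -0.01, with Psmb8 at 0.12 and Psmb9 at 0.07. The constitutive subunits then kept a median of 0.12, with 31 of 31 above 0. The adjustment moved groups within the constitutive set: the alpha median became 0.09, with Psma2 at 0.02 and Psma3 at 0.00, the ATPase median 0.17, with Psmc6 at 0.04, and the beta median 0.10. The medians of the 5 genes and of the 31 constitutive subunits lay closer together with the adjustment than without it.

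Levels differed within and between role groups, whose ranges overlapped. Per kb of transcript, Psme1 and Psme2 stood highest in both columns, at 2445 and 2426 fragments per kb in q2 and 2669 and 2555 in q1. Psmb8 came next in both, at 2300 in q2 and 2264 in q1, and the gene next below it stood at 1182 in q2 and 1159 in q1. The 7 alpha genes spanned 497 to 1171 fragments per kb in q2 and 462 to 1081 in q1, and the 7 constitutive beta genes 649 to 1182 in q2 and 624 to 1126 in q1. The ATPases spanned 525 to 844 in q2 and 470 to 786 in q1, and the non-ATPase genes 381 to 918 in q2 and 353 to 860.3 in q1. Assembly factors and Psmf1 lay between 109 and 349 fragments per kb in q2 and 117 and 339 in q1, and the activator Psme4 stood at 360 in q2 and 328 in q1. Of the 45 neighbouring pairs in this order, 41 in q2 and 40 in q1 differed by less than 1 deposited SD of their difference. The step below Psmb8 was one that exceeded it, at 0.96 on the log2 scale in q2 and 0.97 in q1, as did the step from Psmf1 down to Psmd9. The length used for each gene affects its place.

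**Figure D4:**
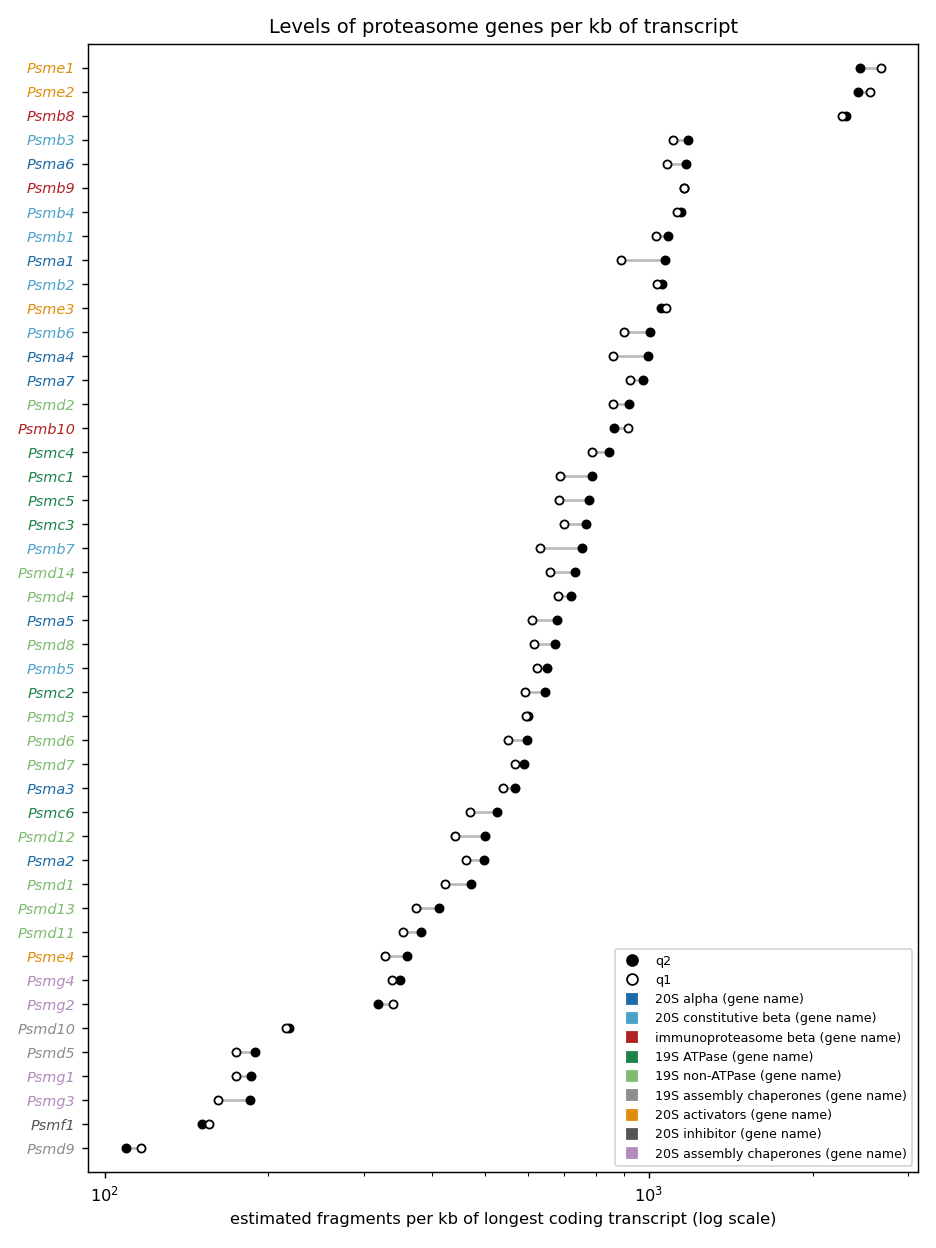
Estimated fragments per kb of the longest coding transcript (log axis) for the 46 members compared, in order of the q2 level; filled points are q2, open points q1, and the colour of a gene name gives its role. Psme1, Psme2 and Psmb8 stand apart at 2264 fragments per kb or more, and the assembly factors and Psmf1 take the lowest places in q2.

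Genes that act with the proteasome but have other names were read from lists written with earlier results of these data known. Of the 11 partners and maturation factors compared, 9 were higher in q2, with a median log2 ratio of 0.09. Over all genes compared, 50.2% were higher in q2. With the linear adjustment 7 of the 11 were higher in q2, with a median of 0.11. Txnl1, a thioredoxin-like protein of the 19S particle, had 831 fragments in q2 and 659 in q1, at 0.33 ± 0.21. It was the only gene of this list at least 25% higher in either column, where 6.90% of all genes compared were in q2. Uchl5, a deubiquitinase of the 19S particle, had 475 fragments in q2 and 383 in q1, at 0.31 ± 0.24. With the adjustment Txnl1 stood at 0.23 and Uchl5 at 0.18. Pomp, a chaperone of 20S core maturation, had 866 and 779 fragments in q2 and q1, at 0.15 ± 0.20. The 14 genes of ubiquitin supply and delivery had a median of 0.01, with 8 higher in q2, led by Uba6, an alternative ubiquitin-activating enzyme, at 0.33 ± 0.21. The NRF1 list, around the factor that induces proteasome genes when proteasome activity is low, had a median of 0.00 over 6 genes with 3 higher in q2. Nfe2l1, encoding NRF1, had 2257 fragments in q2 and 2378 in q1, at -0.08 ± 0.18, and the small partner Mafk stood at -0.35 ± 0.19, with Ngly1, which processes NRF1, at 0.14 ± 0.24.

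Without the linear adjustment, genes that use the products of the immunoproteasome or induce it did not differ in 1 direction. Over all genes compared, 50.2% were higher in q2 and 49.8% in q1. Of 8 genes of MHC class I peptide supply, 3 were higher in q2 and the median was -0.07, but with the linear adjustment 6 of 8 were higher in q2 and the median was 0.04. Calr and Pdia3, chaperones of class I loading that serve the whole endoplasmic reticulum, stood at 0.29 ± 0.18 and 0.27 ± 0.18, and Nlrc5, the class I transactivator, at -0.23 ± 0.18. The 11 inducers and receptors of the interferon pathway had a median of 0.04 with 7 higher in q2. With the adjustment their median was 0.07 and 10 of 11 were higher in q2. Irf8 stood at 0.24 ± 0.18 and Jak1 at 0.12 ± 0.18. Irf1, a factor that activates Psmb8, Psmb9 and Psmb10 promoters, had 2888 fragments in q2 and 2982 in q1, at -0.05 ± 0.18. Interferon response genes were higher in q1 in 18 of 19, with a median of -0.24. Of the 19, 7 were at least 25% higher in q1, against 4.59% of all genes compared. Ifit3 at -0.63 ± 0.24 and Rsad2 at -0.55 ± 0.32 led the list. For scale, 2 other complexes of many subunits had medians between those of the immunoproteasome subunits and the constitutive subunits. The cytosolic chaperonin had 6 of 8 genes higher in q2 and a median of 0.05, with Tcp1 and Cct8 highest at 0.10 each. The COP9 signalosome, which resembles the 19S lid, had 7 of 9 and a median of 0.05, with Cops3 at 0.19 and Cops5 at 0.12. With the adjustment the chaperonin median was 0.08, with 7 of 8 higher in q2, and the COP9 median 0.02, with 6 of 9. The immunoproteasome median was then 0.07 and the constitutive median 0.12, so the COP9 signalosome no longer lay between.

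Genes of dividing and antibody-secreting cells were far higher in q2 than the proteasome shift. Of all genes compared, 50.2% were higher in q2. Of 27 cell cycle genes 27 were higher in q2, with a median of 1.75 and summed fragments of 25880 in q2 and 11741 in q1, led by Ube2c at 2.19 and Cdk1 at 2.13. In the plasma cell list 12 of 13 genes compared were higher in q2, with a median of 1.02 and sums of 94730 in q2 and 46706 in q1, led by Sdc1 at 3.43 and Igj at 3.35. All 10 germinal center genes were higher in q2, with a median of 4.03 and sums of 3317 in q2 and 753 in q1; Rgs13 had 111.6 fragments in q2 and 0.99 in q1. In bulk RNA more such cells and more RNA per cell cannot be told apart, and their part in the shift of the proteasome genes was not tested.

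**Figure D5:**
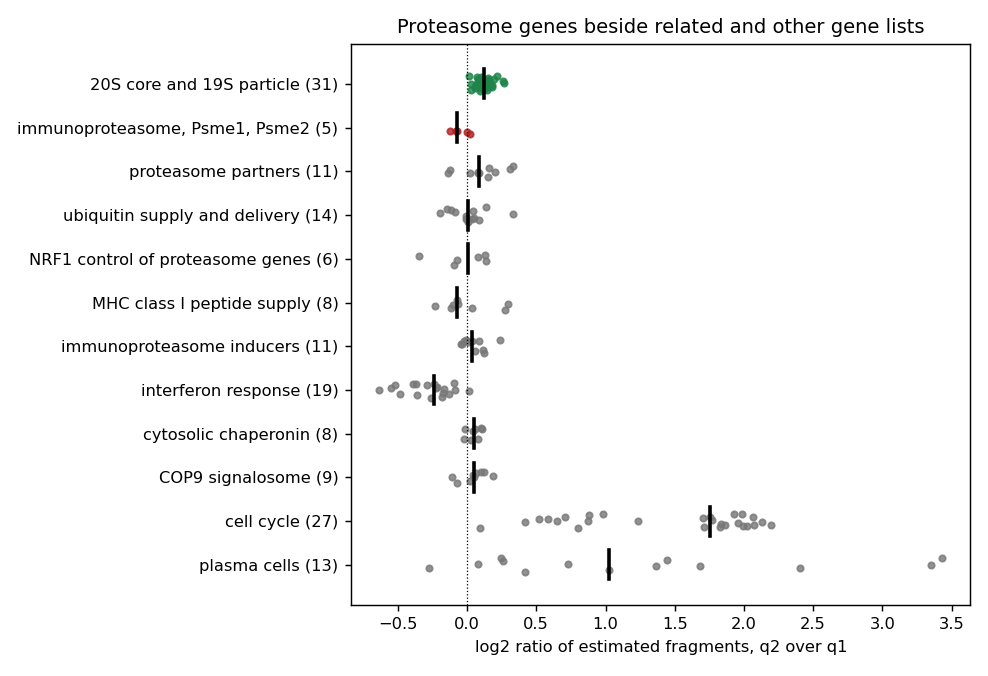
Log2 ratios (q2 over q1) of single genes, as points, and list medians, as black bars, for the constitutive 20S and 19S subunits (green), the immunoproteasome with Psme1 and Psme2 (red) and 10 other lists (grey), with the number of genes compared in parentheses. Proteasome ratios lie within 0.27 of 0, while the cell cycle and plasma cell lists have medians of 1.75 and 1.02.

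Markers of the labelled cell type were abundant. Of all genes compared, 50.2% were higher in q2 and 49.8% in q1. The 6 general B cell genes summed to 168027 fragments in q2 and 175328 in q1, with a median log2 ratio of -0.10, with Cd79b at -0.15. The 10 marginal zone genes summed to 126371 in q2 and 151817 in q1, with a median of -0.48 and 10 of 10 higher in q1, led by Cd9 at -0.86 and Asb2 at -0.82. With the linear adjustment the marginal zone median was -0.37, with 1 of 10 higher in q2, and the general B cell median -0.01. Of 7 follicular B cell genes 6 were higher in q2, with a median of 0.83, led by Fcer2a at 1.73 and Bach2 at 1.37. Markers of other leukocytes, some of which express the immunoproteasome strongly, were scarce. Summed fragments were 1008 in q2 and 1464 in q1 for 14 macrophage and monocyte genes, of which 2 of 7 compared were higher in q2, with Ly6c2 at 1.79 and Slc40a1 at -1.49. They were 392 in q2 and 233 in q1 for 8 dendritic cell genes, of which 2 were compared, Itgax at 1.13 and Flt3 at 0.94. The rest were below 100 fragments in both columns and differed in direction. Zbtb46 had 18.1 in q2 and 27.0 in q1, Siglech 5.11 and 13.7, and Xcr1 28.7 and 24.9. Sums for 12 T cell genes were 1471 in q2 and 1010 in q1, of which Lck alone held 689 and 524. Tcf7 stood at 0.41 and Cd28, which plasma cells also express, at 2.40. Sums for 7 NK cell genes were 285 in q2 and 324 in q1, with Prf1 at -0.48. Without Prf1 the other 6 NK cell genes summed to 95.6 in q2 and 58.6 in q1. Sums for 6 neutrophil genes were 38.8 in q2 and 22.8 in q1, and for 6 erythroid genes 85.5 in q2 and 94.4 in q1. None of these markers of other leukocytes and erythroid cells was at 0 in both columns. Their part in the proteasome values was not tested. Total fragments were 16653774 in q2 and 16877559 in q1, a log2 ratio of -0.02, and the depth of single libraries is unknown.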

How the data were processed

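Per the labels' protocols, RNA was extracted with Trizol and sequenced after Illumina TruSeq library preparation. Tools named in the submitters' processing notes are Cuffdiff 2.2.1, TopHat2 2.0.14 and cutadapt 1.8.1, with build mm10; the sources used here do not state the annotation, settings, scaling or use of strand. The deposited table holds, per the file headers, Cuffdiff's estimated count of fragments and its variance per condition (q1, q2). The isoform assignment part of the variance was 0 throughout. A planned test on counts per library was not run, since the table has 1 value per condition.

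Log2 ratios are log2((q2 + 1)/(q1 + 1)) and understate differences of low genes; a gene was compared if either column reached 100 fragments. SDs are first-order values from the deposited variances. The linear adjustment regressed all ratios on GC content, log length and log mean expression. Intervals (95%, exact) treat the estimated fragments, rounded to whole numbers, as counts and cover counting error only on that footing. Lengths, GC content and positions came from GENCODE M21 (GRCm38, the assembly called mm10), which matched 22694 symbols directly and 929 by synonym, including all 48 members; upstream sequences and motif windows are RefSeq's. Copies were found with BLAST+ 2.17.0 (at least 95% identity over 80% of the transcript). Python 3.11.15, pandas 2.3.3 and scipy 1.17.1 were used, and the calculations were tested on simulated data. The family was picked and the lists were written with earlier results of these data known, though the rule for members uses names only. Named were the catalytic pairs, the activators, members of restricted tissue, the highest and lowest of each role group, the 2 largest ratios of each other list, and other members where a group's account needed them; Pomp, Nfe2l1, Irf1, Tap1, Nlrc5, Psme2b and Psmc3ip were added for their roles after values were seen. Values of some genes that this rule names are not reported here.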

Additional observations from a re-analysis of the deposited data

How the results depend on the processing

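No paired analysis was possible because each condition is 1 pooled estimate without replicate numbers; leaving out libraries and count tests per library were likewise not run. Pseudocounts of 0 and 10, equal totals, scaling by the median ratio and the linear adjustment left 31 of 31 constitutive subunits and 39 of 46 members higher in q2. Of 230 recomputed member ratios, 3 moved beyond counting error, each with the adjustment (Psmb8 to 0.12, Psmc6 to 0.04 and Psme1 to -0.05), and 2 changed sign with it (Psmd10 to -0.10, Psme3 to 0.00). Counts of all genes at least 25% higher in q2 and in q1 (661 and 440) were 1065 and 781 when 20 fragments sufficed, 275 and 208 when 500 were required, and 2716 and 2322 without any minimum, since more or fewer genes were compared. They became 325 and 151 with a 1.5-fold rule and 176 and 42 with a 2-fold rule. With no minimum 2 members were at least 25% higher in q2, Psma8 and Psmb11, both under 3 fragments. An alternative chosen after seeing the data left out the 17 members with a near-identical copy or exon bases shared with another gene: 20 of 20 constitutive subunits and 25 of 29 members were then higher in q2 and 4 in q1, the counts being lower because fewer genes were compared, and the median of the activators became 0.051 on the 2 left, Psme3 and Psme4. The immunoproteasome median then rested on Psmb10 alone, at -0.08. Depth gives no ratio for Psma8 and Psmb11.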

Other observations

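A pair of further genes begin with Psm but fall outside the naming rule. Psmc3ip, which encodes a meiotic and recombination factor and not a proteasome subunit, had 48.2 fragments in q2 and 27.8 in q1. Psme2b, the near-identical copy of Psme2, had a coefficient of variation of 2.43 times in q2 and 2.39 times in q1 the running median of genes of similar count, the largest of the Psm genes examined.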
